A study of Brassica rapa subsp. chinensis with 2 samples.

Results

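The 6 genes of *Brassica rapa* described here match known regulators of the plant cuticle, and were measured in stem RNA of a wax-less and a waxy line. They are 6 of the 33087 genes of the deposited table. The best protein match named in that table is *MYB30* for 3 of them (BraA02g038430.3C, BraA06g036730.3C and BraA09g007290.3C), *MYB41* for BraA08g028610.3C, *WIN1* for BraA06g011410.3C and *SHN3* for BraA09g005880.3C. They were picked as cuticle regulators that differed between the lines, so their differences are given as a description, without a test. They were compared with the 10 other genes that carry the same symbols and with lists of cuticle genes.

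The cuticle is a layer of cutin polyester and wax that epidermal cells build on the outer face of stems and leaves. *MYB30* and its close relative *MYB96* are MYB transcription factors that activate genes for very-long-chain fatty acids, the precursors of wax, in Arabidopsis. *WIN1* (also *SHN1*) and *SHN3* belong to the SHINE group of AP2/ERF factors, which activate cutin and wax genes. *MYB41* is a stress-induced MYB factor known in Arabidopsis for effects on the cuticle and for switching on suberin synthesis.

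‘CX001’ is a wax-less flowering Chinese cabbage line and ‘FT’ is a Chinese cabbage line that carries wax. Both are doubled-haploid lines, and stems were taken at the bolting stage, with 3 libraries per line. Per the study, germinated seeds were vernalized in the cold and the plants then raised in a greenhouse. No treatment that differed between the lines is named. The study mapped the wax-less trait to the locus *wlm1*, which holds BraA09g066480.3C, matched to the alkane-forming enzyme *CER1*. It reports that this gene is missing from the genome of ‘CX001’. The lines are of different crop types, so effects of *wlm1* and of other differences between the 2 genomes cannot be told apart. That the libraries came from separate plants is not stated, so a p-value here covers only how the sequenced libraries vary.

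Expression is given as normalized counts, the read counts divided by a size factor of each library. The deposited table lists only the authors' mean of each line. Each mean is the sum of whole reads from 3 libraries, each with its own step per read, and the reads of each library could be worked out exactly for 97.5% of the genes, the 6 regulators included. Libraries are numbered 1 to 3 within a line in order of that step, which is only a name. Over the 32251 genes worked out in both lines, the libraries held 10063665 to 11376428 reads in ‘CX001’ and 10130382 to 10779668 in ‘FT’. On the log2 scale the libraries correlated at 0.945 to 0.963 within ‘CX001’ and at 0.970 to 0.975 within ‘FT’, across genes. The gene of the locus, *CER1* BraA09g066480.3C, had a mean of 14.3 in ‘CX001’ and of 16922 in ‘FT’. Where the reads counted for it in ‘CX001’ came from, given the reported loss, was not tested. Of the 19 expressed xylem marker genes, 13 were more than 2-fold higher in ‘CX001’ and 0 lower. A sum was taken over the 20 xylem markers with library values, expressed or not. It was 9572, 18230 and 23664 in ‘CX001’ libraries 1 to 3, against 5423 to 7253 in ‘FT’. That sum leaves out *CESA4* BraA06g043400.3C, with a mean of 4416 in ‘CX001’ and of 846 in ‘FT’. Of 20 expressed epidermal markers, 2 were higher and 2 lower by 2-fold. The summed level of all 22 epidermal markers was 5192, 4270 and 3368 in ‘CX001’ libraries 1 to 3, against 3259 to 4351 in ‘FT’. Of 9 green-tissue markers, 1 was higher and 4 lower, 2 *CAB1* genes among them by 7.18- and 5.26-fold, and of 16 phloem markers 1 was higher and 2 lower. Of 8 flower markers 2 were expressed, of which 0 were higher and 1 lower, and the other was not past 2-fold. The lower one, *AGL9* BraA07g012310.3C, held 0 reads in every ‘CX001’ library and 110, 66 and 112 reads in ‘FT’ libraries. It was low in ‘CX001’ as *MYB41*, *WIN1* and *SHN3* were. Over all expressed genes, 16.7% were higher and 17.4% lower by 2-fold. All of these cuticle factors were measured in whole stems, where fewer epidermal cells and less RNA per cell cannot be told apart, and the part of tissue makeup in the values below was not tested.

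The 6 regulators split into 2 opposite groups. The 3 genes matched to *MYB30* were 5.13- to 9.26-fold higher in ‘CX001’, and the genes matched to *MYB41*, *WIN1* and *SHN3* were nearly silent there, with 9 reads among them over the 3 libraries. Genes whose mean reached 10 in the higher line are called expressed here, and of these 25993 genes 16.7% were more than 2-fold higher in ‘CX001’ and 17.4% more than 2-fold lower. The libraries of the lines did not overlap for any of the 6 regulators, which was the case for 59.2% of the 25157 genes with library values. Nothing is read from these counts, since the genes were chosen on this contrast.

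*MYB30* BraA02g038430.3C lies on chromosome A02 (26806806 to 26808195, plus strand) and has a coding length of 981 bases. It held 87, 117 and 112 reads in the ‘CX001’ libraries, against 17, 3 and 14 reads in the ‘FT’ libraries. Its normalized count averaged 105 ± 20.1 in ‘CX001’ and 11.3 ± 7.36 in ‘FT’ (SD, n = 3 each), a log2 ratio of 3.21. The lowest ‘CX001’ library, at 82.1, stood well above the highest ‘FT’ library, at 16.4. Among all expressed genes, 1197 had a larger ratio.

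*MYB30* BraA06g036730.3C, on chromosome A06 (24633256 to 24634728, minus strand, coding length 1002 bases), had nearly the same pattern. It held 92, 88 and 108 reads in ‘CX001’ libraries and 12, 7 and 17 reads in ‘FT’ libraries. The means were 95.8 ± 17.2 in ‘CX001’ and 12.1 ± 5.61 in ‘FT’ (SD, n = 3 each), a log2 ratio of 2.99. These first 2 genes share 4 neighbouring gene names within 10 genes on either side (*AIG2B*, *AVT1I*, *EXPA5* and *PRE5*), so they sit in corresponding stretches of different chromosomes.

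BraA09g007290.3C is also matched to *MYB30* in the table, while the study calls it *MYB96*. It lies on chromosome A09 (4191340 to 4192691, minus strand, coding length 1008 bases). It held 73, 82 and 112 reads in ‘CX001’ libraries and 18, 10 and 24 reads in ‘FT’ libraries. The means were 89.3 ± 27.0 in ‘CX001’ and 17.4 ± 7.84 in ‘FT’ (SD, n = 3 each), a log2 ratio of 2.36, the smallest of the 6 in size. It shared fewer than 2 neighbouring names with the other 2 genes, while its surroundings (*ATS3B*, *NAC101*, *NPF2.11*) matched those of another *MYB30*-named gene, BraA02g043710.3C.

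Per kilobase of coding sequence, the 3 genes stood at 107 ± 20.5, 95.6 ± 17.2 and 88.6 ± 26.8 normalized counts in ‘CX001’, and at 11.6 ± 7.50, 12.0 ± 5.60 and 17.3 ± 7.77 in ‘FT’ (SD, n = 3 each). In neither line did these 3 levels differ from each other by more than their spread. In ‘CX001’ library 3, whose xylem sum was the highest, all 3 genes also had their highest normalized counts, at 120, 116 and 120. The part of xylem content in that was not tested. In ‘CX001’ library 1, with the lowest xylem sum of that line, they had 82.1, 86.8 and 68.9. In library 2 they had 113, 84.9 and 79.1, so BraA06g036730.3C was lowest in library 2.

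*MYB41* BraA08g028610.3C, on chromosome A08 (19919445 to 19920864, minus strand, coding length 810 bases), was lower in ‘CX001’. It held 4, 0 and 1 reads in ‘CX001’ libraries, against 332, 206 and 116 reads in ‘FT’ libraries. The means were 1.62 in ‘CX001’ and 213 ± 99.5 in ‘FT’ (SD, n = 3), a log2 ratio of -7.05. The ‘CX001’ level was 0.757% of that in ‘FT’ (95% exact binomial interval 0.245% to 1.78%, for counting error only). Within ‘FT’ this gene varied most among the strongly expressed regulators, with normalized counts of 320, 198 and 122.

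The 2 SHINE genes were close to absent from ‘CX001’ stems. *SHN3* BraA09g005880.3C (chromosome A09, 3431952 to 3433321, minus strand, coding length 552 bases) held 0, 0 and 3 reads in ‘CX001’ libraries and 186, 285 and 205 reads in ‘FT’ libraries. Its means were 1.07 in ‘CX001’ and 223 ± 48.1 in ‘FT’ (SD, n = 3), a log2 ratio of -7.70, the largest of the 6 in size. The ‘CX001’ level was 0.480% of that in ‘FT’ (interval 0.0987% to 1.41%), and 415 genes had a smaller ratio.

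*WIN1* BraA06g011410.3C (chromosome A06, 6156141 to 6156719, plus strand, coding length 579 bases) was a weakly expressed gene in both lines. It held 1, 0 and 0 reads in ‘CX001’ libraries, against 9, 11 and 13 reads in ‘FT’ libraries. The means were 0.315 in ‘CX001’ and 11.0 ± 2.54 in ‘FT’ (SD, n = 3), and the ‘CX001’ level was 2.86% of that in ‘FT’. With a single read in ‘CX001’, the counting interval runs between 0.0704% and 17.1%, far wider than for *SHN3*.

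**Figure D1:**
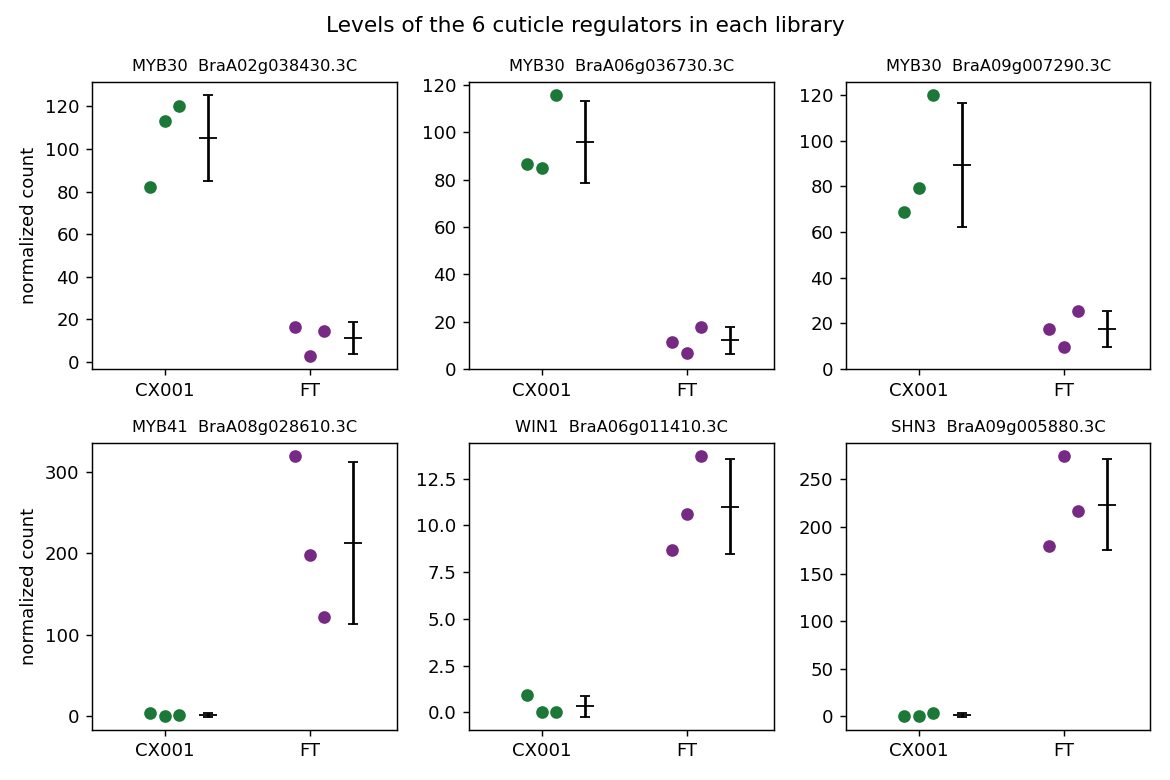
Normalized counts of the 6 regulators in each library (vertical axes, 1 panel per gene, each with its own scale from 0). Points are the 3 libraries of ‘CX001’ (left, green) and of ‘FT’ (right, purple), and the bars beside them give the mean and SD. The 3 genes matched to *MYB30* sit above 68 in every ‘CX001’ library and below 26 in every ‘FT’ library, and *MYB41*, *WIN1* and *SHN3* sit near 0 in ‘CX001’.

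The order of the 6 genes turned over between the lines. Per kilobase in ‘FT’, *SHN3* stood highest at 404 ± 87.1 normalized counts, followed by *MYB41* at 263 ± 123 (SD, n = 3 each), and these neighbours in the order did not differ beyond their spread. *WIN1* followed at 19.0 ± 4.39, close to the 3 *MYB30* genes. In ‘CX001’ the 3 *MYB30* genes led, and *MYB41*, *SHN3* and *WIN1* came last with levels of 1.995, 1.94 and 0.543. Over all 25157 genes with library values, 678 (2.7%) had a mean of at most 2 in ‘CX001’ and at least 10 in ‘FT’, as these 3 genes did.

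The table has 16 rows with 1 of the 4 symbols, and 2 of them encode acetylornithine aminotransferase, an enzyme of arginine synthesis that is also abbreviated *WIN1*. These 2, BraA07g042900.3C at 721 in ‘CX001’ against 1168 in ‘FT’ and BraA02g025720.3C at 374 against 528, are not regulators. The other 14 are the 6 regulators and 8 further copies. Of the 10 same-symbol rows beside the 6, the 2 aminotransferase rows included, 7 were expressed. Of these, 0 were higher and 2 lower by 2-fold, as were 16.7% and 17.4% of all expressed genes. Their median log2 ratio was -0.70, against 0.01 over all expressed genes. That median is the value of the aminotransferase row BraA07g042900.3C. The counts of 0 and 2 were the same without the aminotransferase rows. Without ‘CX001’ library 3, 1 was higher.

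The 2 remaining *MYB30* copies did not share the higher level in ‘CX001’. BraA09g003630.3C held 58, 52 and 78 reads in ‘CX001’ libraries and 31, 46 and 53 reads in ‘FT’ libraries, a log2 ratio of 0.54 with overlapping libraries (limma adjusted p = 0.22). It shared 7 neighbouring names with BraA06g036730.3C and 4 with BraA02g038430.3C, so these 3 genes hold corresponding positions on 3 chromosomes, and the other 2 differed 7.94- and 9.26-fold. BraA02g043710.3C held 27, 46 and 45 reads in ‘CX001’ libraries and 53, 91 and 60 reads in ‘FT’ libraries, a log2 ratio of -0.77 (limma adjusted p = 0.096), while BraA09g007290.3C, in the corresponding stretch, had 2.36.

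Summed over the 5 copies matched to *MYB30*, the normalized count was 392 ± 86.6 in ‘CX001’ and 151 ± 25.5 in ‘FT’ (SD, n = 3 each). The 3 higher genes made up 73.0% to 74.8% of the reads of these 5 copies in a ‘CX001’ library and 12.7% to 35.9% in an ‘FT’ library. The 2 other copies together had 102 ± 26.6 in ‘CX001’ and 111 ± 26.6 in ‘FT’. The sum of those 2 differed by less than its spread between libraries. All these sums follow the best match, so they may cover more than *MYB30* itself. BraA09g007290.3C, which the study calls *MYB96*, and BraA02g043710.3C lie in corresponding stretches, apart from those of the other copies. The sums leave out BraA06g026000.3C, matched to *MYB306*, which shares neighbouring names with both.

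The symbols *MYB94*, *MYB96* and *SHN2* do not occur in the table, so a gene named *MYB30* by best match can be a close relative. Another 5 genes, chosen after their values were seen, are matched to a snapdragon Myb-related protein (*MYB306*). BraA06g026000.3C, which shares *NAC101* and 2 other neighbouring names with BraA09g007290.3C, held 34, 40 and 51 reads in ‘CX001’ libraries and 11, 11 and 20 reads in ‘FT’ libraries. It rose in ‘CX001’ by the limma test over all genes (log2 difference 1.54 ± 0.39 SE, adjusted p = 0.012). The most abundant, BraA02g022420.3C, averaged 449 ± 63.5 in ‘CX001’ and 845 ± 206 in ‘FT’ (SD, n = 3 each; limma adjusted p = 0.0070), a difference of less than 2-fold.

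The *MYB41* copies differed among themselves. BraA07g038340.3C held 35, 0 and 0 reads in ‘CX001’ libraries and 161, 67 and 86 reads in ‘FT’ libraries, with a log2 ratio of line means of -3.23. By limma, on log2(normalized count + 1), it fell by 4.92 (SE 1.26, adjusted p = 0.013), a size that depends on the 2 libraries with 0 reads. All of its ‘CX001’ reads were in library 1. Its direct neighbour BraA07g038350.3C held 56, 6 and 19 reads in ‘CX001’ libraries and 21, 24 and 23 reads in ‘FT’ libraries (limma adjusted p = 0.79). The 2 further copies, BraA02g022310.3C and BraA06g014350.3C, held 6 and 5 reads in ‘CX001’ and 0 and 3 reads in ‘FT’ over 3 libraries each. In ‘CX001’ every one of the 5 *MYB41* genes had its highest count in library 1, the library with the lowest xylem sum and the highest epidermal sum of that line. Single epidermal markers did not all follow that order. *PDF1* BraA05g003100.3C held 425, 32 and 1 reads in ‘CX001’ libraries 1 to 3. *ALE2* BraA07g000530.3C held 755, 925 and 502 reads there, and *ACR4* BraA07g034050.3C held 29, 37 and 34. The summed *MYB41* counts were 99.1, 6.76 and 21.4 in ‘CX001’ libraries, against 498, 286 and 237 in ‘FT’ libraries. The part of that library's tissue makeup was not tested.

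The surroundings of the *MYB41* genes overlapped to different extents. BraA07g038340.3C and BraA02g022310.3C share 6 neighbouring names, *At1g74360* and *At1g74510* among them. BraA08g028610.3C shares 5 with BraA06g014350.3C, and 2 with BraA07g038340.3C and with BraA07g038350.3C, namely its direct neighbours *IBS1* and *SPAC16E8.02*. Arabidopsis *MYB41* itself lies on a different chromosome from *At1g74360* and *At1g74510*, so for the copies on A07 and A02 the symbol may stand for a relative of *MYB41*. Since BraA08g028610.3C shares names with the A07 copies, its symbol may stand for a relative as well. The name *MYB41* is used here only as the best match.

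For *SHN3*, the second copy was also lower in ‘CX001’, by less. BraA06g032700.3C held 35, 19 and 17 reads in ‘CX001’ libraries and 71, 83 and 45 reads in ‘FT’ libraries, and fell by 1.48 on the log2 scale (SE 0.35, limma adjusted p = 0.0096). The *SHN3* sum was 24.3 ± 7.75 in ‘CX001’ and 288 ± 57.7 in ‘FT’ (SD, n = 3 each). The second *WIN1* copy, BraA09g058770.3C, which shares 3 neighbouring names with the first, held 6, 15 and 4 reads in ‘CX001’ libraries and 5, 7 and 2 reads in ‘FT’ libraries, under the minimum for a test. With it the *WIN1* sum was 8.46 ± 5.34 in ‘CX001’ and 15.5 ± 1.94 in ‘FT’ (SD, n = 3 each). The libraries of the lines overlapped for this second *WIN1* copy and did not for either *SHN3* gene.

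**Figure D2:**
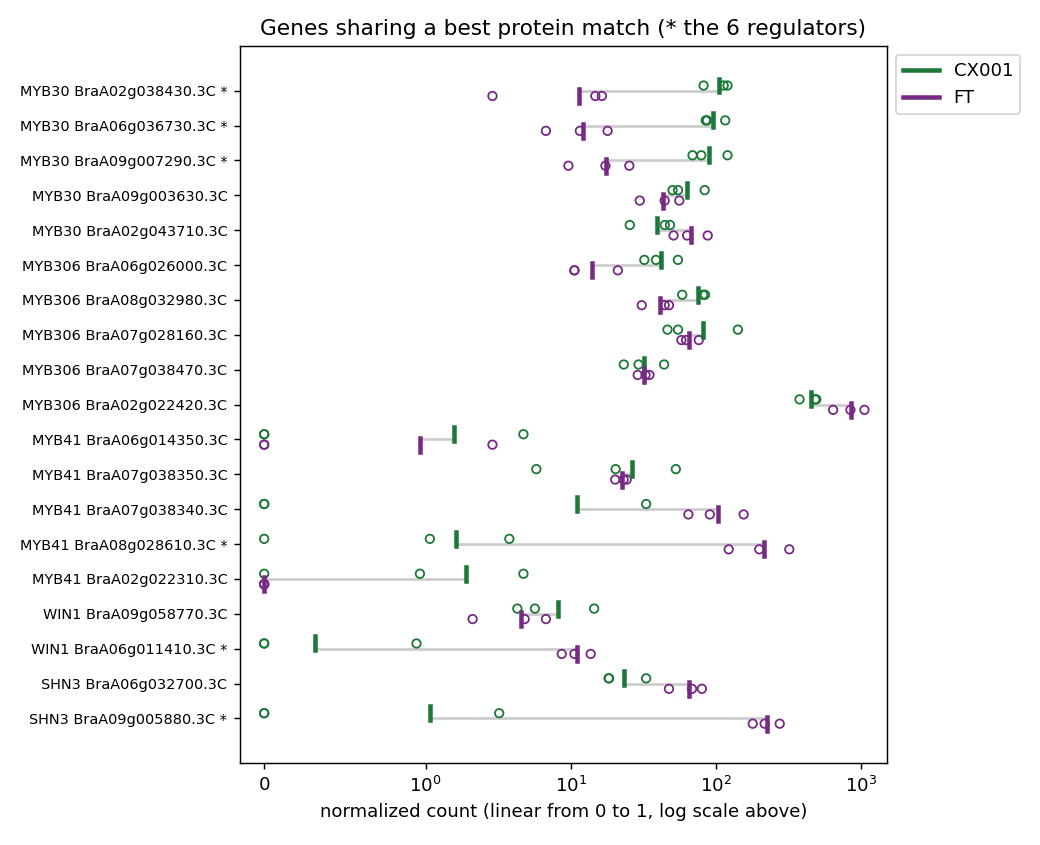
Normalized counts of the 14 regulator copies and of the 5 genes matched to *MYB306* (horizontal axis, linear up to 1 and logarithmic above). Open circles are single libraries and short vertical lines the line means, with ‘CX001’ (green) above ‘FT’ (purple) in each row, and asterisks mark the 6 regulators. The 3 starred *MYB30* genes have the widest gaps of their group, while *MYB41*, *WIN1* and *SHN3* each have a starred copy with means under 2 in ‘CX001’.

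Other regulators of the cuticle moved in both directions. Of 16 expressed genes of that list, 3 were higher and 4 lower in ‘CX001’ by 2-fold, with a median log2 ratio of -0.43. All 7 also passed the limma test (adjusted p under 0.05). Among all genes tested, 30.8% passed both the 2-fold cut and this test. The 4 lower genes became 2 without ‘CX001’ library 3. *MYB16* and *MYB106* are MIXTA-like MYB factors that act together with *WIN1* in Arabidopsis. *MYB16* BraA02g005970.3C held 4, 3 and 5 reads in ‘CX001’ libraries and 14, 74 and 27 reads in ‘FT’ libraries (limma adjusted p = 0.0068), so that the lines did not overlap but ‘FT’ was widely spread. *MYB106* BraA01g044600.3C averaged 136 ± 18.7 in ‘CX001’ and 293 ± 66.4 in ‘FT’ (SD, n = 3 each; limma adjusted p = 0.0042), and BraA05g040860.3C averaged 165 ± 62.1 in ‘CX001’ and 342 ± 66.9 in ‘FT’ (limma adjusted p = 0.012).

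*MYB74* BraA09g025090.3C, a relative of *MYB41*, held 1, 0 and 0 reads in ‘CX001’ libraries, against 32, 4 and 2 reads in ‘FT’ libraries (limma adjusted p = 0.034). Most of its reads thus came from 1 ‘FT’ library. The 3 genes that rose were *WRI1* BraA07g021670.3C and BraA09g045300.3C, matched to an activator of fatty acid synthesis, and *ERF107* BraA03g044620.3C, matched to *DEWAX*, a repressor of wax genes. *WRI1* BraA07g021670.3C averaged 303 ± 52.7 in ‘CX001’ and 83.4 ± 40.1 in ‘FT’ (SD, n = 3 each; limma adjusted p = 0.0031). *ERF107* averaged 154 ± 45.1 in ‘CX001’ and 63.5 ± 10.4 in ‘FT’ (limma adjusted p = 0.0060).

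Proteins known to act on MYB30 in Arabidopsis are the ubiquitin ligase MIEL1, which leads to its breakdown, the brassinosteroid factor BES1 (*BZR2*) and a secreted phospholipase. Of 8 expressed genes of that list, 0 were higher and 2 lower in ‘CX001’ by 2-fold, both of them *MIEL1*, with a median log2 ratio of -0.58. Over all expressed genes, 16.7% were higher and 17.4% lower. The 8 include *CRSP* BraA06g015730.3C, with a mean of 449 in ‘CX001’ and of 436 in ‘FT’. *MIEL1* BraA03g008710.3C held 78, 49 and 100 reads in ‘CX001’ libraries and 220, 224 and 223 reads in ‘FT’ libraries (limma adjusted p = 0.0027). *MIEL1* BraA10g021500.3C averaged 103 ± 29.8 in ‘CX001’ and 208 ± 19.4 in ‘FT’ (SD, n = 3 each; limma adjusted p = 0.0087), and the libraries did not overlap for either gene. The count of 2 became 1 without ‘CX001’ library 2 or without ‘FT’ library 3.

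Genes for wax synthesis and export, among which are targets of MYB30, MYB96 and SHINE factors in Arabidopsis, were more often lower than higher. Of 36 expressed wax genes, 3 were higher and 11 lower in ‘CX001’ by 2-fold, with a median log2 ratio of -0.47. Over all expressed genes, 16.7% were higher and 17.4% lower. Library values could be had for 29 of the wax genes, of which 2 rose and 7 fell by 2-fold and the limma test, as 14.6% and 16.2% of all genes tested did. Beside *CER1*, *LTP3* BraA02g011080.3C, matched to a lipid-transfer protein, had a mean of 7.15 in ‘CX001’ and of 7556 in ‘FT’. The other genes matched to *LTP3* were within 2-fold. *WSD1* BraA02g020720.3C, matched to a wax ester synthase, averaged 26.5 ± 18.4 in ‘CX001’ and 1003 ± 133 in ‘FT’ (SD, n = 3 each; limma adjusted p = 8.3e-05). *KCS2* BraA10g002770.3C, matched to an enzyme that lengthens fatty acids, averaged 16.4 ± 4.34 in ‘CX001’ and 347 ± 73.8 in ‘FT’ (limma adjusted p = 1.5e-05). The 2 wax genes that rose by limma were *WSD1* BraA01g023840.3C and *PAS2* BraA10g027410.3C. The first averaged 181 ± 20.1 in ‘CX001’ and 67.0 ± 10.5 in ‘FT’ (limma adjusted p = 0.00094). The second averaged 552 ± 107 in ‘CX001’ and 157 ± 37.0 in ‘FT’ (limma adjusted p = 0.00037), while another *PAS2* gene fell by limma.

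*FAR3* BraA08g016400.3C, matched to the alcohol-forming reductase *CER4*, had the largest ratio among the higher wax genes but rested on uneven libraries. It held 7, 203 and 618 reads in ‘CX001’ libraries and 43, 12 and 14 reads in ‘FT’ libraries (limma adjusted p = 0.21). The lines overlapped, and library 1 of ‘CX001’ was the lowest of all 6.

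Of 26 expressed cutin genes, 5 were higher and 8 lower in ‘CX001’ by 2-fold (median log2 ratio -0.35), of which 4 rose and 8 fell by the limma test. The shares over all genes were 16.7% and 17.4% by 2-fold, and 14.6% and 16.2% with the limma test as well. *HTH* BraA08g030900.3C, matched to an oxidoreductase of cutin monomer synthesis, averaged 27.4 ± 17.4 in ‘CX001’ and 993 ± 281 in ‘FT’ (SD, n = 3 each). *CYP77A4* BraA05g036180.3C averaged 11.1 ± 3.03 in ‘CX001’ and 353 ± 80.4 in ‘FT’, and *GPAT4* BraA10g000410.3C, matched to an acyltransferase that joins cutin monomers to glycerol, averaged 21.8 ± 7.24 in ‘CX001’ and 594 ± 175 in ‘FT’. Another gene matched to *HTH*, BraA09g046810.3C, rose and averaged 50.4 ± 35.4 in ‘CX001’ and 5.99 ± 1.30 in ‘FT’ (limma adjusted p = 0.0038).

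Suberin, the wall polyester of roots and wounded tissue, is the known target of *MYB41* in Arabidopsis, a symbol that BraA08g028610.3C carries by best match only. Of 16 expressed suberin genes, 5 were higher and 3 lower in ‘CX001’ by 2-fold (median log2 ratio 0.55), of which 4 rose and 3 fell by the limma test. The shares over all genes were 16.7% and 17.4% by 2-fold, and 14.6% and 16.2% with the limma test as well. The lower counts are thus near the share over all genes. *ABCG20* BraA09g044460.3C and *ABCG2* BraA09g044490.3C, matched to transporters of suberin precursors, held 75, 80 and 106 reads and 105, 67 and 86 reads in ‘CX001’ libraries, and 0 reads in every ‘FT’ library. Against a floor of 3 reads over the ‘FT’ libraries they were at least 82.7-fold and at least 80.9-fold higher. *CYP86B1* BraA09g024730.3C held 86, 130 and 97 reads in ‘CX001’ libraries and 12, 6 and 5 reads in ‘FT’ libraries (limma adjusted p = 0.00014). *HHT1* BraA10g001960.3C, matched to a feruloyl transferase, held 1, 0 and 4 reads in ‘CX001’ libraries and 48, 41 and 44 reads in ‘FT’ libraries (limma adjusted p = 0.00065).

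**Figure D3:**
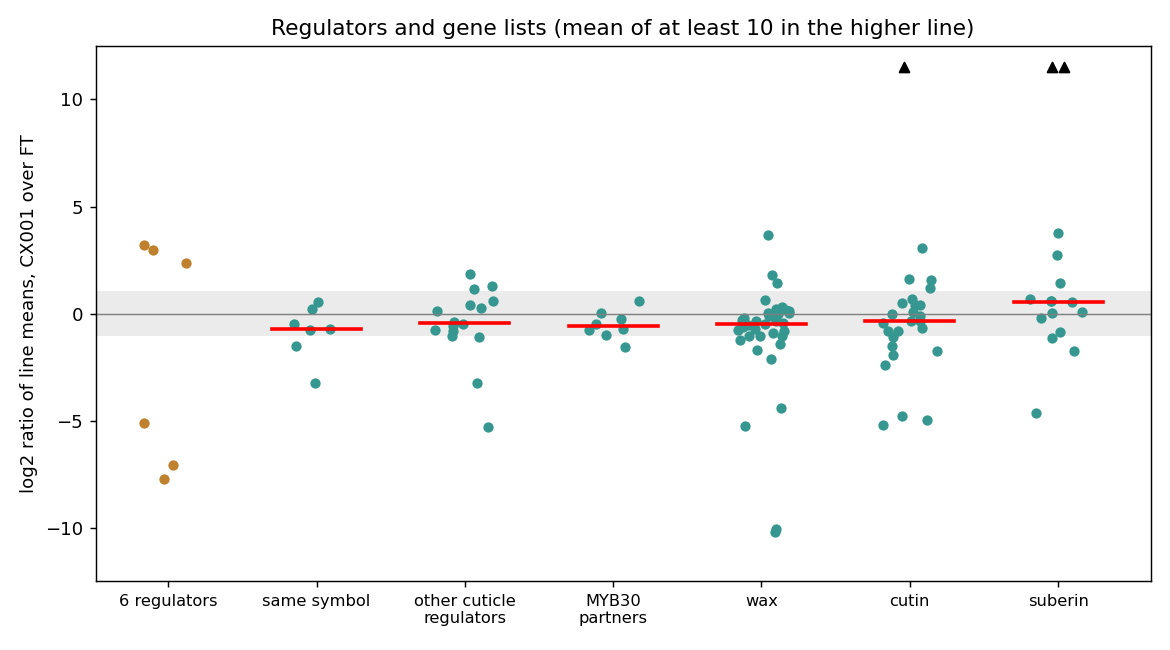
Log2 ratios of line means, ‘CX001’ over ‘FT’ (vertical axis), for the 6 regulators and for the expressed genes of each list (horizontal axis). Each point is a gene, red lines are list medians, the grey band marks less than 2-fold, and triangles are genes at 0 in ‘FT’. The list medians lie between -0.70 and 0.55, with the regulators far outside the band on both sides. The same-symbol list includes the 2 aminotransferase rows.

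The genes beside the 3 silent regulators were mostly within 2-fold between the lines, with exceptions in both directions. Most expressed genes were within 2-fold as well, with 34.2% of them past it in either direction. Of the 5 genes on either side, those of *SHN3* BraA09g005880.3C included 6 expressed ones, of which 2 were higher and 0 lower in ‘CX001’ by 2-fold (median log2 ratio 0.20). *MYB41* BraA08g028610.3C and *WIN1* BraA06g011410.3C had 9 expressed neighbours each, of which 1 was higher and 1 lower for either gene, with medians of 0.30 and -0.31. The lower one beside *WIN1*, BraA06g011380.3C at 3 genes' distance, had a mean of 3.88 in ‘CX001’ and of 71.2 in ‘FT’ (log2 ratio -4.20), near the ratio of *WIN1* itself. The lower one beside *MYB41*, *LNG2* BraA08g028670.3C at 5 genes' distance, had a mean of 15.2 in ‘CX001’ and of 97.4 in ‘FT’ (log2 ratio -2.68), and these neighbours were named after their values were seen.

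Beside each *MYB30* gene only 7 or 8 neighbours were expressed, too few to compare the chromosomes. Of the 7 expressed neighbours of BraA02g038430.3C, 4 were higher and 2 lower in ‘CX001’ by 2-fold (median log2 ratio 1.53). Of the 8 expressed neighbours of BraA06g036730.3C, 2 were higher and 0 lower (median 0.41), and of the 8 beside BraA09g007290.3C, 1 was higher and 1 lower (median 0.61).

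**Figure D4:**
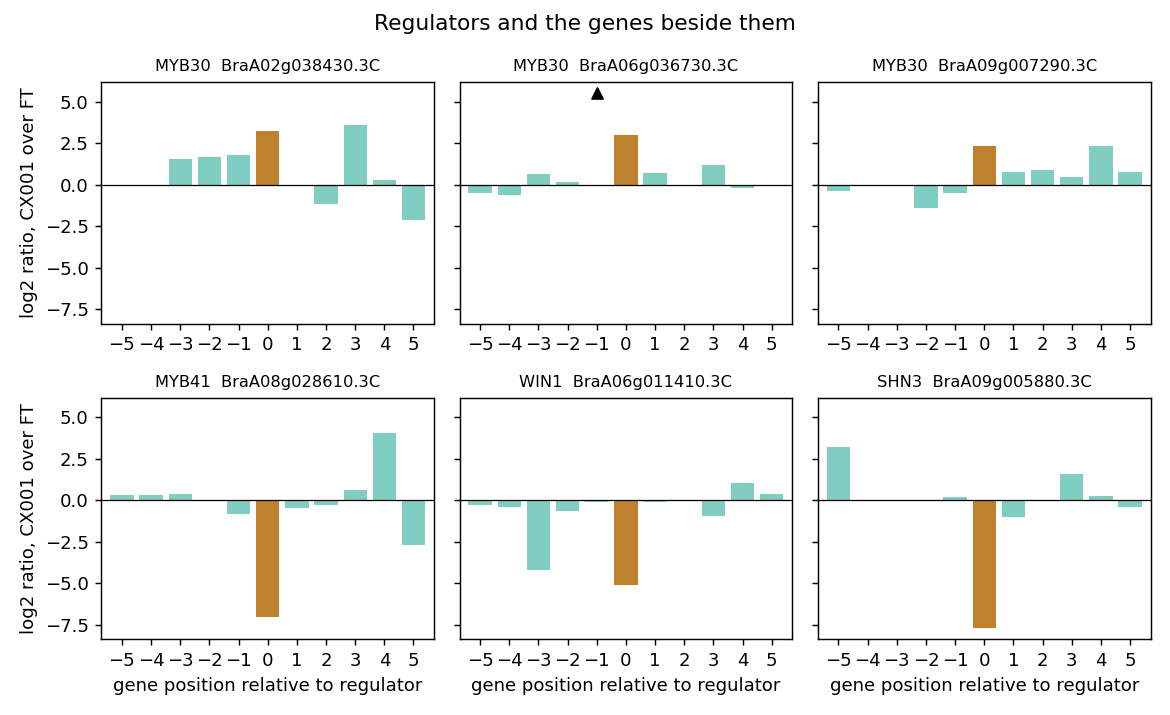
Log2 ratios of line means, ‘CX001’ over ‘FT’ (vertical axes), of each regulator (brown bar at position 0) and of the 5 genes on either side in gene order (horizontal axes). Genes with a mean under 10 in both lines have no bar, and the triangle is a gene at 0 in ‘FT’. *MYB41* and *SHN3* stand at -7.05 and -7.70 between neighbours with medians of 0.30 and 0.20.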

How the data were processed

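Stem RNA was sequenced by the authors from 3 libraries per line. Per the methods, the authors removed low-quality and adapter reads, used HISAT2 for alignment and DESeq2 for the comparison. TopHat2 is a further tool that the processing notes of the submitters list. The deposited signal values are the authors' means of normalized counts per line. Coding lengths, positions, protein matches and the authors' own fold changes and p-values stand beside them, and the last 2 were not used. The genome build is not given for the RNA data in the sources used here.

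Here the reads of each library were solved from the deposited means, up to a mean of 4000, with 1 solution for every gene solved. The solving step was also run on simulated means. The deposited values are means and not counts, and a count model was not run on the solved reads. Over 25157 genes whose mean reached 10 in a line and whose reads were solved in both, limma 3.58.1 (R 4.3.3, trend) tested log2(normalized count + 1), with Benjamini-Hochberg adjustment. Fold changes use line means and ± gives the SD over libraries. A call was 2-fold, with the limma test where named. Up to 6 genes per list, of largest ratio, could be named, and 2 wax genes are named for rising by the limma test. Lists hold exact symbols. The members and lists were chosen with earlier results of these data known. Intervals cover counting error only. Alternatives were other minimums, folds, pseudocounts, scaling and leaving out each library. Python 3.11.15, numpy 2.4.6, pandas 2.3.3, scipy 1.17.1 and matplotlib 3.10.9 were used.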

Additional observations from a re-analysis of the deposited data

How the results depend on the processing

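The direction of the 6 regulators was the same in all 58 combinations of a gene and a setting. Nothing is read from that. Their libraries did not overlap, so leaving out a library or adding a pseudocount could not reverse a ratio. Without each library in turn, the log2 ratio ranged over 2.75 to 3.57 for *MYB30* BraA02g038430.3C, 2.70 to 3.39 for BraA06g036730.3C, 2.07 to 2.73 for BraA09g007290.3C, -8.64 to -6.46 for *MYB41* BraA08g028610.3C, -5.27 to -4.54 for *WIN1* BraA06g011410.3C and -7.84 to -7.12 for *SHN3* BraA09g005880.3C, with no ratio for *WIN1* without ‘CX001’ library 1 or *SHN3* without library 3, which left 0 reads there. *MYB41* reached its lower end without ‘CX001’ library 1. With a pseudocount of 5 the ratio was -5.04 for *MYB41* and -1.59 for *WIN1*, which follows from adding 5 to means near 0. At 4-fold the counts (higher, lower) had 1 lower for same-symbol copies, 0 higher and 2 lower for other regulators, 0 lower for MYB30 partners, 1 higher and 5 lower for wax, 2 higher and 4 lower for cutin, and 1 lower for suberin. At 1.5-fold there were 4 same-symbol rows lower, among them the aminotransferase row BraA07g042900.3C, 7 other regulators lower, and 1 partner higher and 4 lower. With no minimum mean there were 1 copy, 6 other regulators, 11 wax genes and 10 suberin genes higher and 8 suberin genes lower, and with a minimum of 50 there were 2 other regulators lower. With the library test as well, 7 wax genes were lower, since means over 4000 had no library values.

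Leaving out each library gave 0 to 1 copies higher and 2 lower, 2 to 3 other regulators higher and 2 to 4 lower, 0 partners higher and 1 to 2 lower, 3 to 4 wax genes higher and 8 to 12 lower, 4 to 6 cutin genes higher and 7 to 9 lower, and 5 to 6 suberin genes higher and 2 to 4 lower. The limma test over all genes then called 3257 to 3681 genes higher and 3706 to 4245 lower, against 3662 and 4079 with all libraries. Of 176 combinations of a count and a setting, 152 stayed within 1.5 times. Scaling by the library sum, no minimum and a pseudocount of 5 were chosen after seeing the data and gave 3487 to 4218 higher and 4101 to 4441 lower. No paired analysis was possible because the table's columns carry no replicate numbers. *WIN1* rests on 33 reads in ‘FT’ and 1 in ‘CX001’, the shallowest of the 6.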
